A study of Mus musculus with 8 samples.

Results

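Cytotoxic granules hold more than granzymes and perforin. The genes described here are 10 others whose products work in or around them: the cathepsins *Ctsc*, *Ctsd*, *Ctsl* and *Ctsw*, the proteoglycan serglycin (*Srgn*), and the serpins *Serpina3g*, *Serpinb1a*, *Serpinb6a*, *Serpinb6b* and *Serpinb9*. They were chosen by name, and all 10 were found among the 24303 genes of the expression table. RNA-Seq was made from sorted P14 cells, CD8 T cells from the spleen of C57BL/6 mice that carry a transgenic T cell receptor for GP33, a peptide of the virus LCMV. All cells were first activated on plates coated with anti-CD3 and anti-CD28 and then cultured with IL-2 and IL-15. Effector cells were taken at day 7 and all others at day 19. The study names day 7 cells of its flow cytometry Effector 7d-stim, while the sample labels do not give the peptide exposure of the Effector libraries. Acute-2d cells received no peptide after the plates. Acute-7d cells were given GP33 until day 7 and none thereafter. T_Dysf cells were given GP33 throughout, with TGF-β1 added from day 7, so that continued antigen and TGF-β1 cannot be told apart in these data. The cells were cultured without the tissue or the infected cells of an animal. Each condition had 2 libraries, which the study calls biological replicates. Whether each came from its own mouse is not given in the sources used here, and p-values measure the spread between these libraries.

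Values are normalized counts, the estimated reads of a gene divided by the size factor of its library. The 8 libraries held an estimated 19381799 to 24856512 reads on genes, and 3 reads corresponded to 2.589 to 3.347 normalized counts, a floor that covers counting error only. A library prefix, RESUB, was recorded for both Effector libraries and for Acute-7d replicate 1. What it stands for is not stated. *Xist* was at 53.5 to 115 in these 3 libraries and at 21871 to 30427 in the other 5, and *Ddx3y*, on the Y chromosome, was at 1334 to 2161 in the 3 and at 0 to 2.59 in the 5, so the prefix also separated cells of male and female type, including the Acute-7d libraries from each other, which thus came from different mice. The prefix and the Effector condition cannot be told apart directly, since no Effector library lacks it. Within Acute-7d, the log2 difference of the library with the prefix from that without it ran over the 10 genes from -0.46 (*Serpinb6b*) to 0.23 (*Ctsc* and *Serpina3g*).

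Granzymes are made as inactive proenzymes, and cathepsin C removes the dipeptide that blocks them on their way to the granule. In the granule they are held by the charged chains of serglycin, together with cathepsins shared with ordinary lysosomes. Serpins of the cytosol and nucleus bind granzymes and cathepsins that leak from granules and inactivate them irreversibly, and are known for protecting cytotoxic T cells from their own enzymes.

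The cathepsins *Ctsw* and *Ctsd* and serglycin were at their highest in T_Dysf cells, while the serpins had other orders: *Serpinb9* and *Serpinb6b* were highest in Effector cells, *Serpina3g* in the rested Acute cells, *Serpinb1a* was lowest in T_Dysf cells, and *Serpinb6a* varied little. In bulk RNA, fewer cells of a type and less RNA per cell cannot be told apart. Conditions were compared with limma on log2(normalized count + 1), and a gene was called when its fold change was at least 2 and its Benjamini-Hochberg adjusted p, over all genes, was under 0.05. Of the 10 genes, 2 were called between T_Dysf and Acute-7d cells, both higher in T_Dysf (*Ctsw*, *Srgn*), where 5.57% of all genes were called. Between T_Dysf and Acute-2d cells 3 were called, *Ctsd* and *Ctsw* higher and *Ctsl* lower, beside 7.35% of all genes. Between T_Dysf and Effector cells 4 were called, *Ctsd*, *Ctsw* and *Srgn* higher and *Serpinb9* lower, beside 9.22% of all genes. All 10 genes had a mean of at least 50. When only genes with such a mean were tested, 12.3% were called against Acute-7d, 14.1% against Acute-2d and 18.4% against Effector. The same members were then called, and *Serpinb6b* against Effector as well. Effector and Acute-2d cells differed in 2, *Serpinb6b* higher and *Ctsl* lower in Effector, beside 8.78% of all genes. None of the 10 was called by limma between Effector and Acute-7d cells, where 8.06% of all genes were, or between Acute-7d and Acute-2d cells, where 0.169% were. With the p left unadjusted these last counts were 3 and 1, beside 14.5% and 3.74% of all genes. The median log2 fold change of the 10 was 0.22 in T_Dysf against Acute-7d, 0.21 against Acute-2d and 0.28 against Effector, 0.08 in Acute-7d against Acute-2d, and -0.22 and -0.10 in Effector against Acute-7d and Acute-2d, beside 0.00 over all genes in each. In all, 11 calls were made, on 6 of the 10 genes, and most of them depended on single libraries, as given for each gene below. A fit with a term for the RESUB prefix kept 0 of the 11. That term rests on the 2 Acute-7d libraries, the only ones that differ in prefix within a condition. Between T_Dysf and Acute-7d it uses Acute-7d replicate 2 alone, as leaving out replicate 1 does. Between T_Dysf and Acute-2d, both without the prefix, the log2 fold changes stayed at 1.29 (*Ctsd*), -1.34 (*Ctsl*) and 1.72 (*Ctsw*).

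**Figure D1:**
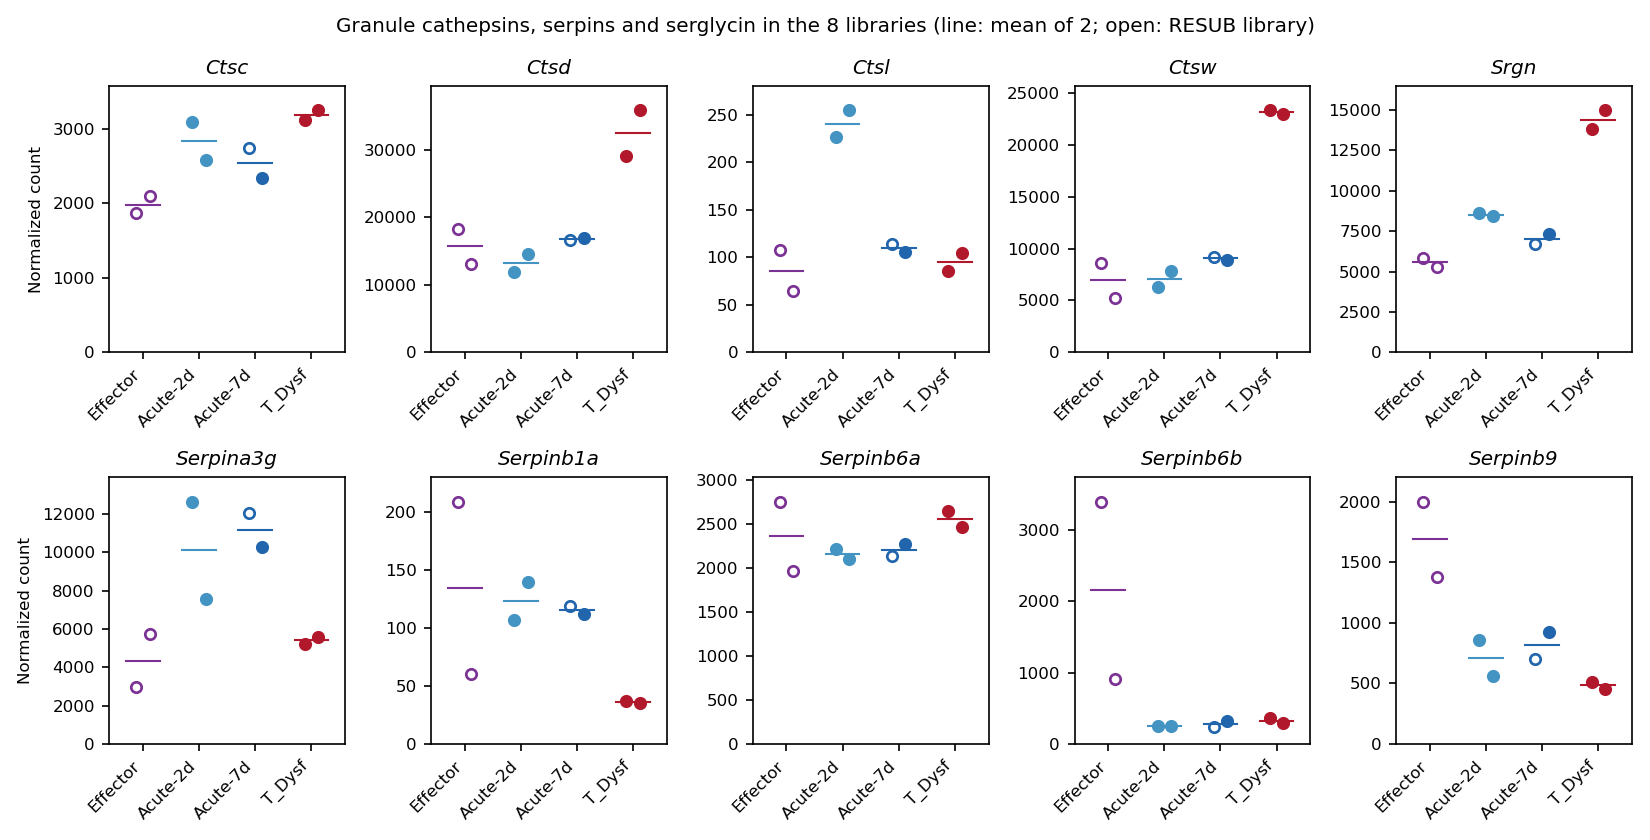
Normalized counts (vertical axis, linear, from 0) of the 10 genes in each library of the 4 conditions, with a line at the mean of 2 libraries and open circles for libraries with the RESUB prefix. *Ctsw*, *Ctsd* and *Srgn* stood highest in both T_Dysf libraries, *Serpinb9* and *Serpinb6b* in both Effector libraries, and *Ctsl* in both Acute-2d libraries.

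*Ctsw* (chr19:5465043-5468507, minus strand, GRCm38) encodes cathepsin W, a cysteine cathepsin made mainly by CD8 T and NK cells. It was at 23358 and 22979 in T_Dysf, 9191 and 8940 in Acute-7d, 6332 and 7863 in Acute-2d, and 8623 and 5251 in Effector. Both T_Dysf libraries stood apart from the other 6, among which Effector and Acute-2d overlapped. *Ctsw* rose 2.56-fold in T_Dysf over Acute-7d (log2 fold change 1.35 ± 0.26 SE, adjusted p = 0.0429 by limma with Benjamini-Hochberg adjustment), 3.28-fold over Acute-2d (1.72 ± 0.26, adjusted p = 0.0199) and 3.44-fold over Effector (1.78 ± 0.26, adjusted p = 0.0163). The other conditions, in the order Acute-7d, Acute-2d and Effector, did not differ beyond their spread, with 95% intervals of the log2 fold change of -0.30 to 1.02 for Acute-7d against Acute-2d, -1.09 to 0.23 for Effector against Acute-7d and -0.73 to 0.59 for Effector against Acute-2d. The size of the difference from Acute-7d hardly moved with any library left out (1.33 to 1.37), but each of the 4 omissions, Acute-7d replicate 1 or 2 and T_Dysf replicate 1 or 2, ended the call (adjusted p = 0.121 to 0.177), as did the RESUB term (1.37, adjusted p = 0.171) and scaling to equal 75th percentiles (1.25, adjusted p = 0.0655). Against Acute-2d each of the 4 omissions ended it as well (1.56 to 1.87, adjusted p = 0.0622 to 0.107), and against Effector those of T_Dysf replicate 1 (1.77, adjusted p = 0.0898) and T_Dysf replicate 2 (1.80, adjusted p = 0.0598).

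*Ctsd* (chr7:142375911-142388038, minus strand) encodes cathepsin D, the main aspartic protease of lysosomes. It was at 29138 and 35907 in T_Dysf, 16636 and 16927 in Acute-7d, 18265 and 13130 in Effector, and 11955 and 14560 in Acute-2d. Both T_Dysf libraries were above the other 6, and the Effector libraries overlapped both Acute conditions. *Ctsd* rose 2.45-fold over Acute-2d (log2 fold change 1.29 ± 0.21 SE, adjusted p = 0.0255) and 2.09-fold over Effector (1.06 ± 0.21, adjusted p = 0.0359). Against Acute-7d the difference was 1.93-fold (0.95 ± 0.21, adjusted p = 0.0638) and missed both thresholds. Part of this gene cannot be told from its neighbour by sequence: 32.35% of the 50-base stretches of its transcripts also occur in those of the overlapping gene model *Gm49369*. The table gave *Gm49369* 4322 normalized counts in T_Dysf replicate 1 and at most 2.61 in each of the other 7 libraries. With both genes summed, a step chosen after seeing the data, the T_Dysf libraries stood at 33460 and 35907, closer to each other than before, and the log2 fold change over Acute-7d was 1.05 ± 0.19 (2.07-fold, adjusted p = 0.0408), which passed both thresholds. The sums against Acute-2d and Effector gave 1.39 (adjusted p = 0.0167) and 1.16 (adjusted p = 0.0229). As deposited, the call against Acute-2d ended when any of the 4 libraries was left out, Acute-2d replicate 1 or 2 or T_Dysf replicate 1 or 2 (1.14 to 1.44, adjusted p = 0.0717 to 0.118), and that against Effector without Effector replicate 2 (0.82, adjusted p = 0.0992), T_Dysf replicate 1 (1.21, adjusted p = 0.104) or T_Dysf replicate 2 (0.91, adjusted p = 0.122).

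The promoter of *Ctsd* is shown because it holds letters that are known in genes of lysosomal enzymes, the core of the CLEAR element bound by TFEB. The stretch is the 39 bases at chr7:142388039-142388077, minus strand, that precede every annotated *Ctsd* exon in RefSeq sequence of build GRCm38.p6, with the CLEAR core CACGTGAC in capitals.
Ctsd: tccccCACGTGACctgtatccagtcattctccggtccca
In the 250 bases before the RefSeq start the core occurred 2 times, the other time within the annotated gene. It was searched on both strands and was present in 1.848% of 32851 promoter windows of that length in mouse, and among the 10 windows found for 8 of these 10 genes the *Ctsd* window was the only one to hold it. A match of letters is not a measured site. *Tfeb* itself was at a mean of 487 in T_Dysf and 518.7 in Acute-7d cells (log2 fold change -0.09, 95% interval -0.54 to 0.36).

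*Srgn* (chr10:62493833-62527451, minus strand) encodes serglycin, the proteoglycan core on which granzymes are packed. It was at 13818 and 14994 in T_Dysf, 8609 and 8419 in Acute-2d, 6697 and 7315 in Acute-7d, and 5845 and 5300 in Effector. No library of any condition overlapped those of another, and replicates differed by at most 1.1-fold, which makes serglycin the most evenly measured of the 10 across conditions. It rose 2.06-fold in T_Dysf over Acute-7d (log2 fold change 1.04 ± 0.09 SE, adjusted p = 0.00643) and 2.59-fold over Effector (1.37 ± 0.09, adjusted p = 0.00311). Over Acute-2d the difference was 1.69-fold (0.76 ± 0.09, adjusted p = 0.0104), past the adjusted p and under the fold. In the same way Effector cells were 1.53-fold under Acute-2d (-0.61 ± 0.09, adjusted p = 0.018), with an adjusted p under the threshold and a fold change under 2. The call over Acute-7d sits at the edge of the fold threshold and was lost, at an adjusted p still under 0.05, without Acute-7d replicate 1 (0.98, adjusted p = 0.04) or T_Dysf replicate 2 (0.98, adjusted p = 0.0216), with the RESUB term (0.98, adjusted p = 0.0393) and with equal 75th percentiles (0.94, adjusted p = 0.0172). The call over Effector held in all 4 omissions (1.3 to 1.44, adjusted p = 0.00679 to 0.018) and was lost with the RESUB term (1.24, adjusted p = 0.0615).

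*Ctsc* (chr7:88278085-88310888, plus strand) encodes cathepsin C, the dipeptidyl peptidase that activates granzymes. Its range was narrow: 3115 and 3251 in T_Dysf, 3093 and 2580 in Acute-2d, 2747 and 2337 in Acute-7d, and 1866 and 2099 in Effector. Both T_Dysf libraries were above, and both Effector libraries below, all others, while the Acute conditions overlapped. T_Dysf was 1.61-fold over Effector (log2 fold change 0.68 ± 0.13 SE, adjusted p = 0.0314), past the adjusted p but not the fold. Over Acute-7d it was 1.26-fold (0.33 ± 0.13, adjusted p = 0.199), with a 95% interval of -0.01 to 0.67, and over Acute-2d 1.13-fold, with an interval of -0.17 to 0.51. Both intervals end below a fold change of 2.

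*Ctsl* (chr13:64359337-64370890, minus strand) encodes cathepsin L, a lysosomal cysteine protease that can process procathepsin C. Its pattern was not that of the other cathepsins: 226.4 and 254.7 in Acute-2d, 113.8 and 105.0 in Acute-7d, 85.33 and 104.1 in T_Dysf, and 107.8 and 64.2 in Effector. Both Acute-2d libraries stood apart, and the Effector libraries overlapped those of Acute-7d and T_Dysf. *Ctsl* fell 2.53-fold in T_Dysf (log2 fold change -1.34 ± 0.28 SE, adjusted p = 0.045) and 2.86-fold in Effector (-1.52 ± 0.28, adjusted p = 0.0301) from Acute-2d. Acute-7d was 2.19-fold under Acute-2d, with an unadjusted p of 0.0101 and an adjusted p of 0.469, in a comparison in which few genes were called. The T_Dysf call ended without any of Acute-2d replicate 1 or 2 and T_Dysf replicate 1 or 2 (-1.48 to -1.20, adjusted p = 0.0978 to 0.188). The Effector call ended without Acute-2d replicate 1 (-1.60, adjusted p = 0.11), Acute-2d replicate 2 (-1.43, adjusted p = 0.115) or Effector replicate 2 (-1.15, adjusted p = 0.0521).

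*Serpinb9* (chr13:33003250-33017957, plus strand), also called Spi6, encodes the mouse inhibitor of granzyme B. It was at 2000 and 1376 in Effector, 857.3 and 563.5 in Acute-2d, 700.6 and 924.9 in Acute-7d, and 514.4 and 455.5 in T_Dysf. Both Effector libraries were the highest, both T_Dysf libraries the lowest, and the Acute conditions overlapped each other between them. *Serpinb9* fell 3.42-fold in T_Dysf from Effector (log2 fold change -1.78 ± 0.30 SE, adjusted p = 0.0231). T_Dysf was 1.66-fold under Acute-7d (-0.73 ± 0.30, adjusted p = 0.207) and 1.44-fold under Acute-2d (-0.52 ± 0.30, adjusted p = 0.341), with 95% intervals of -1.5 to 0.03 and -1.29 to 0.25 that hold both no difference and more than a 2-fold one. Effector was 2.06-fold over Acute-7d (1.04 ± 0.30, adjusted p = 0.0836) and 2.39-fold over Acute-2d (1.25 ± 0.30, adjusted p = 0.0527). Both of these passed when only the genes with a mean of at least 50 were tested (adjusted p = 0.0196 and 0.00965). The call between T_Dysf and Effector was kept without Effector replicate 2 (-2.04, adjusted p = 0.0485) and ended without Effector replicate 1 (-1.51, adjusted p = 0.0631), T_Dysf replicate 1 (-1.86, adjusted p = 0.102) or T_Dysf replicate 2 (-1.69, adjusted p = 0.0852), and with the RESUB term (-2.18, adjusted p = 0.157).

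The window before the RefSeq start of *Serpinb9* is shown because *Serpinb9* and *Serpina3g* peaked in different conditions, and the letters before a start of each can be set side by side, although only that of *Serpina3g* lies before the whole annotated gene. The *Serpinb9* window lies at chr13:33004291-33004540 (GRCm38.p6, plus strand), inside the span of the gene given above, before a RefSeq start that lies within it, and touches no annotated exon. Capitals mark an interferon-stimulated response element (ISRE) core, GAAANNGAA, and an NFAT core, GGAAAA, both read here on the opposite strand.
Serpinb9: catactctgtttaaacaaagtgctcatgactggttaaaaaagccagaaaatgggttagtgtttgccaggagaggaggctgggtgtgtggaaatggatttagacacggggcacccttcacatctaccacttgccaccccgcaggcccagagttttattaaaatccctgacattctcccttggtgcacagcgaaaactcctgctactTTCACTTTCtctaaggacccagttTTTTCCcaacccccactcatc
The *Serpina3g* window lies at chr12:104235897-104236146 (plus strand), also clear of annotated exons. Its capitals mark, in order, a Runx core, TGTGGT, an NFAT core on the opposite strand, and a gamma-activated sequence (GAS), TTCNNNGAA, the type of site bound by STAT factors.
Serpina3g: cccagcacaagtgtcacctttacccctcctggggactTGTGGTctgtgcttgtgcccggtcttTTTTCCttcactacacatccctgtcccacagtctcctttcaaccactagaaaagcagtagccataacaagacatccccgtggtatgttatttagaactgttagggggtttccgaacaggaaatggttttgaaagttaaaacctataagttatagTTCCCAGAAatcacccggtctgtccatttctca
Of all windows, 7.129% held the ISRE core, 20.43% the NFAT core, 14.05% the Runx core and 7.02% the GAS letters, counting both strands, so each is common. In the windows of the other genes, a *Srgn* start within the gene (chr10:62507758-62508007) held NFAT, Runx and ISRE core letters, the NFAT and ISRE letters overlapping. That of *Ctsc* held GAS letters, that of *Ctsl* an NFAT core, and a *Serpinb6a* start GAS and overlapping ISRE core letters. The *Ctsl* window lies within the span of the gene, and its NFAT letters are outside the 17 bases that precede annotated exons. Those of *Serpinb6a* are likewise outside the 91 bases of its window that precede annotated exons. The *Serpinb6b* window held none of the 8 motifs, and no window of these genes held the AP-1 (TGANTCA), SMAD box (GTCTAGAC) or T-box (TCACACCT) letters, which 6.749%, 0.1674% and 1.12% of all windows held. *Ctsw* and *Serpinb1a* were without a window.

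*Serpinb6b* (chr13:32965209-32979067, plus strand) encodes an inhibitor of granzyme A. It was at 3397 and 915.9 in Effector, 359.4 and 293.6 in T_Dysf, 236.5 and 325.1 in Acute-7d, and 252.8 and 254.8 in Acute-2d. Both Effector libraries were above the other 6, but they lay 3.71-fold apart, the widest replicate gap among the 10 genes in any condition. *Serpinb6b* rose 6.93-fold in Effector over Acute-2d (log2 fold change 2.79 ± 0.63 SE, adjusted p = 0.0475). It was 6.34-fold over Acute-7d (2.67 ± 0.63, adjusted p = 0.0544) and 5.42-fold over T_Dysf (-2.44 ± 0.63 for T_Dysf against Effector, adjusted p = 0.0663), both short of the threshold. The latter pair of differences passed it when either Effector library was left out: without Effector replicate 1 they were 1.72 (adjusted p = 0.0293) and -1.49 (adjusted p = 0.035), and without Effector replicate 2 they were 3.61 (adjusted p = 0.0164) and -3.38 (adjusted p = 0.0129). The call over Acute-2d ended without Acute-2d replicate 1 (2.79, adjusted p = 0.166) or Acute-2d replicate 2 (2.80, adjusted p = 0.149). It was kept without Effector replicate 1 (1.85, adjusted p = 0.0237) and Effector replicate 2 (3.74, adjusted p = 0.0132), so that its size depends on which Effector library is used. Among the day 19 conditions it was not called, with wide 95% intervals such as -1.4 to 1.86 for T_Dysf against Acute-7d.

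*Serpina3g* (chr12:104236245-104241939, plus strand), also called Spi2A, encodes an inhibitor of lysosomal cathepsins. It was at 12044 and 10277 in Acute-7d, 12655 and 7569 in Acute-2d, 5229 and 5570 in T_Dysf, and 2953 and 5732 in Effector. All 4 libraries of the rested Acute conditions were above all 4 of T_Dysf and Effector, and each of these pairs overlapped. None of the differences passed: T_Dysf was 2.06-fold under Acute-7d (log2 fold change -1.04 ± 0.40 SE, adjusted p = 0.187) and 1.81-fold under Acute-2d (-0.86 ± 0.40, adjusted p = 0.249). Effector was 2.70-fold under Acute-7d (-1.43 ± 0.40, adjusted p = 0.0787) and 2.38-fold under Acute-2d (-1.25 ± 0.40, adjusted p = 0.105). Both Effector differences passed when genes with a mean of at least 50 were tested alone (adjusted p = 0.0146 and 0.0229). Of the 50-base stretches of its transcripts, 15.5% also occur in other genes, most of them in *Serpina3h*, whose level was at most 4.04 in any library, so little signal stood in that copy.

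*Serpinb1a* (chr13:32842092-32851185, minus strand) encodes an inhibitor of neutrophil serine proteases such as elastase and cathepsin G. It was at 209.3 and 60.19 in Effector, 107.4 and 140.3 in Acute-2d, 119.4 and 112.1 in Acute-7d, and 37.11 and 35.59 in T_Dysf. Both T_Dysf libraries were the lowest, and the other conditions overlapped, with the Effector libraries 3.48-fold apart. T_Dysf was 3.12-fold under Acute-7d (log2 fold change -1.64 ± 0.59 SE, adjusted p = 0.169), 3.32-fold under Acute-2d (-1.73 ± 0.59, adjusted p = 0.144) and 3.04-fold under Effector (-1.60 ± 0.59, adjusted p = 0.145). None of these was called. That against Acute-2d passed when only genes whose maximum reached 50 were tested (-1.73, adjusted p = 0.0487), and that against Effector passed without Effector replicate 2 (-2.49, adjusted p = 0.0185), the lower of the Effector pair.

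*Serpinb6a* (chr13:33917918-34002794, minus strand) encodes Spi3, which inhibits trypsin-like proteases and cathepsin G. It moved least of the 10, with 2752 and 1965 in Effector, 2645 and 2469 in T_Dysf, 2131 and 2270 in Acute-7d, and 2216 and 2099 in Acute-2d. Its highest and lowest condition means were 1.19-fold apart, less than the 1.40-fold between the Effector replicates. Of its 95% intervals in the 6 comparisons, the bound farthest from 0 was 0.68, for T_Dysf against Acute-2d, short of a 2-fold difference. *Serpinb6a*, *Serpinb6b*, *Serpinb9* and *Serpinb1a* all lie on chromosome 13 in the clade B serpin cluster, *Serpinb6b* and *Serpinb9* next to each other in order of start among these 4 genes. In this pair the Effector libraries were highest in both genes, while *Serpinb1a*, to their left, had Effector libraries on both sides of those of the Acute cells.

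**Figure D2:**
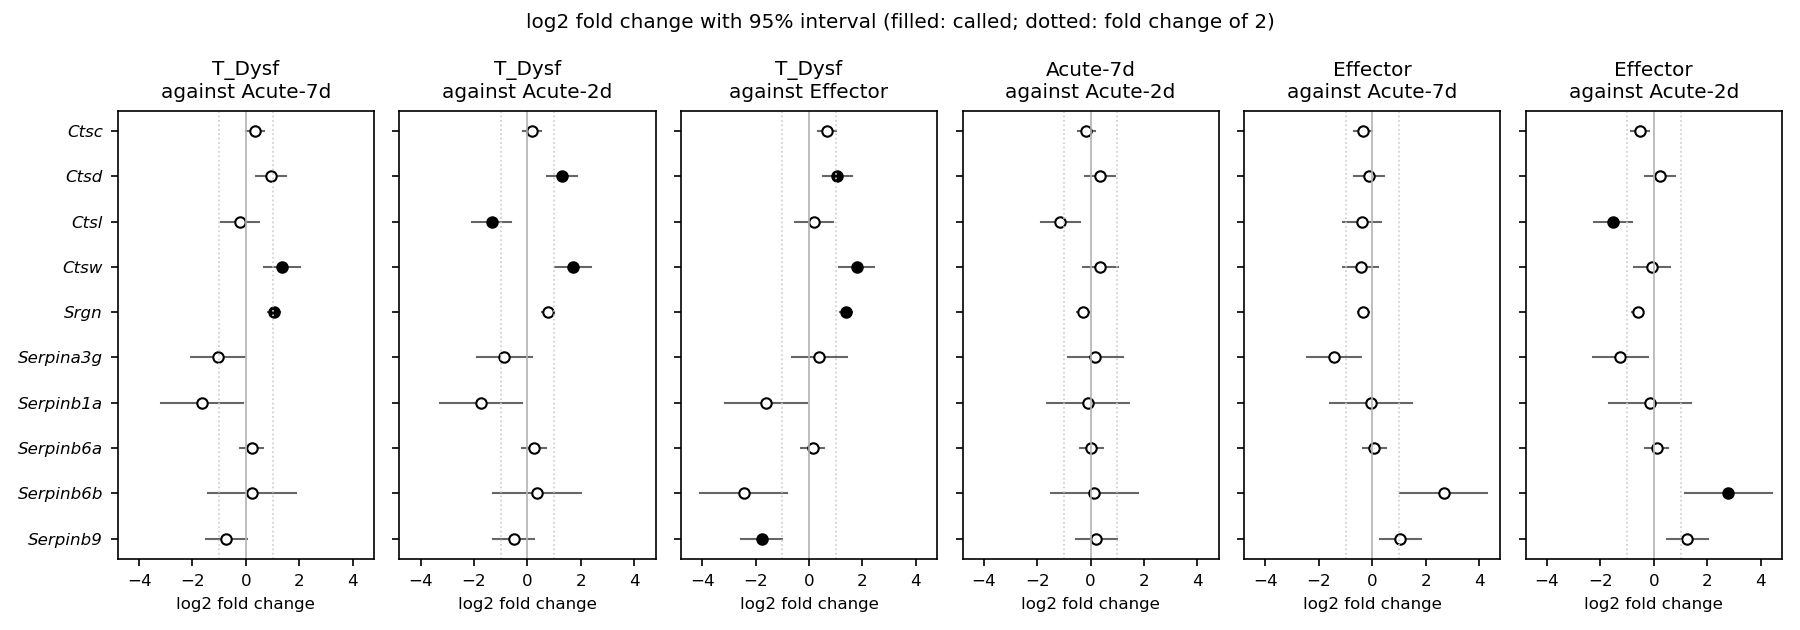
log2 fold changes of the 10 genes (horizontal axis; points) with 95% intervals (lines) in the 6 comparisons, the first condition named over the second; filled points were called and dotted lines mark a fold change of 2. *Ctsw* was to the right of its dotted line in all 3 T_Dysf comparisons, and the interval of *Serpinb6b* was the widest in each panel.

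Compared per length, as normalized counts per kilobase of exon, the most abundant of the 10 in T_Dysf were *Ctsd* (13833 ± 2036 SD, n = 2), *Ctsw* (12278 ± 141.9) and *Srgn* (6560 ± 378.6), and the least were *Serpinb1a* (15.78 ± 0.4693) and *Ctsl* (14.59 ± 2.044). The length joins all annotated exons of a gene, 6489 bases for *Ctsl* and 2303 for *Serpinb1a*, and may exceed that of the transcripts expressed. Before division by length *Ctsl* was above *Serpinb1a* in T_Dysf, at means of 94.71 and 36.35. In T_Dysf the means of *Ctsd* and *Ctsw* differed by less than the SD of *Ctsd*, while in Acute-7d cells *Ctsd* was at 7138 ± 87.34, *Serpina3g* at 5302 ± 593.4 and *Ctsw* at 4804 ± 93.89. *Serpinb9* was at 483.2 ± 126.3 per kilobase in Effector and at 138.8 ± 11.92 in T_Dysf, and *Serpinb6b* at 953.5 ± 775.7 and 144.3 ± 20.57. *Serpina3g*, at 2565 ± 114.5 in T_Dysf and 2063 ± 933.4 in Effector, was above both, though in Effector its SD and that of *Serpinb6b* overlapped.

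Granzymes were set against these genes as ratios of normalized counts in each library. The pairs were chosen after their values were seen, the ratios are not per length and do not count molecules, and no test was made on them. *Gzmb*, the target of *Serpinb9*, was at 149579 and 149509 in T_Dysf, 90949 and 66735 in Effector, 29274 and 27049 in Acute-7d, and 27601 and 31971 in Acute-2d. The ratio of *Gzmb* to *Serpinb9* was 291 and 328 in T_Dysf, 45.5 and 48.5 in Effector, 41.8 and 29.2 in Acute-7d, and 32.2 and 56.7 in Acute-2d. In Effector cells both *Gzmb* and *Serpinb9* stood above the Acute libraries and the ratio lay within their range, whereas in T_Dysf cells *Gzmb* was at its highest and *Serpinb9* at its lowest. The ratio of *Gzma* to *Serpinb6b* was 1060 and 1219 in T_Dysf, 56.3 and 33.5 in Acute-7d, 26.2 and 26.8 in Acute-2d, and 3.0 and 5.39 in Effector. *Gzma* itself was at 380972 and 357778 in T_Dysf and at 10176 and 4933 in Effector, the condition with the highest *Serpinb6b*. *Gzmb* over *Ctsc* was 48.0 and 46.0 in T_Dysf and 48.7 and 31.8 in Effector, beside 8.92 to 12.4 in the 4 Acute libraries, since *Ctsc* varied little while *Gzmb* varied widely. *Gzmb* over *Srgn* was 10.8 and 9.97 in T_Dysf, 15.6 and 12.6 in Effector, and 3.21 to 4.37 in the Acute libraries.

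**Figure D3:**
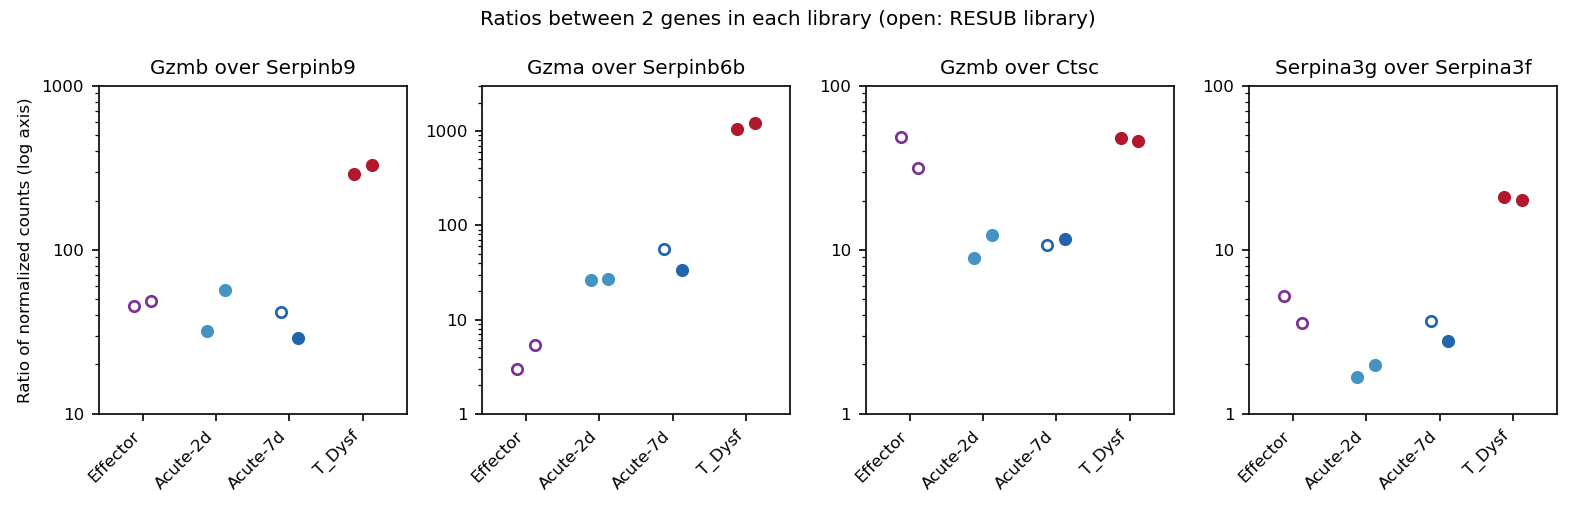
Ratios of the normalized counts of gene pairs in each library (vertical axes, log scale; open circles, libraries with the RESUB prefix). *Gzmb* over *Serpinb9* and *Gzma* over *Serpinb6b* were highest in both T_Dysf libraries (291 and 328; 1060 and 1219), *Gzmb* over *Ctsc* was high in T_Dysf and Effector, and *Serpina3g* over *Serpina3f* was 21.0 and 20.2 in T_Dysf.

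The other genes of the granule and of lysosomes were taken from 7 lists holding 98 genes, of which 84 were in the table. The counts called between T_Dysf and Acute-7d cells in each list stand beside 5.57% of all genes. Among 10 granzymes and perforin, T_Dysf cells had 4 called higher and 1 lower than Acute-7d cells, with a median log2 fold change of 1.32 beside 0.00 over all genes. *Gzma* (4.94 ± 0.36 SE, adjusted p = 0.00488), *Gzmk* (3.53 ± 0.33, adjusted p = 0.00868) and *Gzmb* (2.41 ± 0.22, adjusted p = 0.008) rose, and *Gzme* fell (-2.41 ± 0.39, adjusted p = 0.031). Of 11 other cathepsins and lysosomal cysteine proteases, 1 rose and 1 fell (median -0.26). The gene that rose was *Ctsa*, the lysosomal carboxypeptidase cathepsin A, at 8166 and 7995 in T_Dysf and 3182 and 3037 in Acute-7d (1.38 ± 0.19, adjusted p = 0.0219), and it was also called higher over Acute-2d and Effector, as *Ctsd* and *Ctsw* were. *Ctsg*, cathepsin G, fell, from 25.66 and 77.75 in Acute-7d to 2.589 and 0 in T_Dysf, at or under the 3-read floor. *Ctsb*, cathepsin B, was at 5230 and 5834 in T_Dysf and at 4271 and 3991 in Acute-7d (log2 fold change 0.42, 1.34-fold, adjusted p = 0.067).

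Of 7 cystatins, the inhibitors of cysteine cathepsins, 4 were in the table and none was called by limma in any of the 6 comparisons. In each comparison 1 or 2 had an unadjusted p under 0.05 by limma, a count without a share over all genes to set beside it. The median in T_Dysf against Acute-7d was 0.54. Those with the highest means were *Cst7*, cystatin F, which inhibits cathepsin C in granules, and *Cst3*, the secreted cystatin C. *Cst7* was at 3576 and 3964 in T_Dysf, 3079 and 3024 in Acute-7d, 2228 and 2398 in Acute-2d, and 2314 and 1782 in Effector. It was 1.23-fold higher in T_Dysf than in Acute-7d (log2 fold change 0.30, adjusted p = 0.253), 1.63-fold higher than in Acute-2d (adjusted p = 0.0396) and 1.85-fold higher than in Effector (adjusted p = 0.0195), the last 2 under the fold threshold. *Ctsc* over *Cst7* stayed between 0.773 and 1.39 in all 8 libraries. *Cst3* was 1.49-fold higher in T_Dysf than in Acute-7d (0.58, adjusted p = 0.296).

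Of 24 other serpins, 14 were in the table, 3 of them with a mean of at least 50, and 2 fell in T_Dysf from Acute-7d (median -0.77). *Serpina3f*, a close relative and neighbour of *Serpina3g*, was at 248.6 and 275.9 in T_Dysf, 3263 and 3687 in Acute-7d, 7563 and 3819 in Acute-2d, and 565.6 and 1604 in Effector. It fell 13.2-fold (log2 fold change -3.72 ± 0.58 SE, adjusted p = 0.0277) from Acute-7d to T_Dysf. As with *Serpina3g*, all 4 Acute libraries stood above those of T_Dysf and Effector. *Serpina3g* over *Serpina3f* was thus 21.0 and 20.2 in T_Dysf, 5.22 and 3.57 in Effector, 3.69 and 2.79 in Acute-7d, and 1.67 and 1.98 in Acute-2d. *Serpini1*, neuroserpin, fell 2.19-fold (-1.13 ± 0.14, adjusted p = 0.0165).

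Serglycin carries chondroitin sulfate chains, and of 15 genes that build them 1 rose and 2 fell in T_Dysf from Acute-7d (median 0.51). *Chst11*, a chondroitin 4-O-sulfotransferase, was at 2760 and 2946 in T_Dysf and 979.6 and 797.7 in Acute-7d (log2 fold change 1.69 ± 0.31 SE, adjusted p = 0.0389). *Chst15*, which adds a further sulfate to the 4-sulfated units, fell from 96.8 and 79.77 to 4.316 and 0.8896. *Xylt1*, a xylosyltransferase that starts the chains, fell from 180.7 and 150.5 to 33.66 and 40.92 (-2.12 ± 0.28, adjusted p = 0.0195). The more abundant *Xylt2*, the other xylosyltransferase of the list, was at 1836 and 1573 in Acute-7d and 1085 and 1068 in T_Dysf. It was 1.58-fold lower in T_Dysf (-0.66 ± 0.16, adjusted p = 0.0761 by limma) and not called. Of 17 trafficking and release genes in the table, 1 rose and 1 fell (median 0.44): *Rab27a*, which docks granules, rose 2.08-fold (1.06 ± 0.14, adjusted p = 0.019) and *Lyst*, which controls the size of lysosomes and granules, fell 2.03-fold (-1.02 ± 0.08, adjusted p = 0.00594). These calls also depended on single libraries: without 1 library at a time, Acute-7d replicate 1 or 2 or T_Dysf replicate 1 or 2, between 1 and 3 granzymes, 0 or 1 trafficking genes, 0 or 1 chain genes, and 0 other cathepsins and 0 other serpins were called by limma. With the RESUB term 2 granzymes, *Gzma* and *Gzmk*, and 1 trafficking gene, *Lyst*, remained called, and 0 other cathepsins, 0 other serpins and 0 chain genes, and equal 75th percentiles ended the calls of *Rab27a* (0.96) and *Chst11* (1.59).

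**Figure D4:**
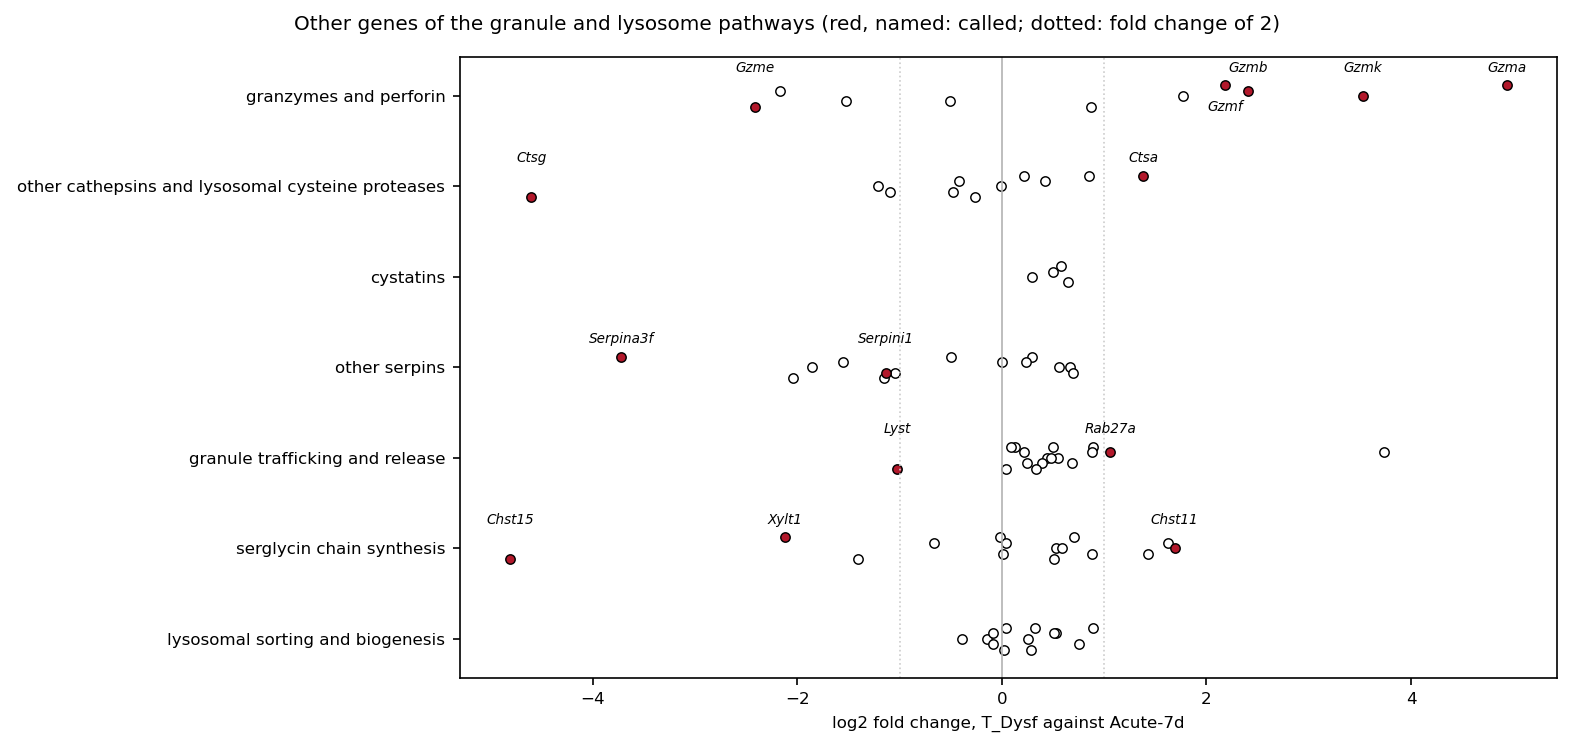
log2 fold changes of T_Dysf against Acute-7d (horizontal axis) for the genes in the table of 7 lists (rows; vertical jitter has no meaning); red, named points were called and dotted lines mark a fold change of 2. *Gzma* was farthest to the right (4.94), *Chst15* and *Ctsg*, both near 0 in T_Dysf, were farthest to the left, and the positions of such low genes depend on the pseudocount.

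Markers of the labelled and of other cell types were set beside these results. All 6 T cell identity genes, *Cd3e*, *Cd3d*, *Cd3g*, *Cd8a*, *Cd8b1* and *Cd2*, were above the floor in every condition, and their summed level was 117732 to 122142 in T_Dysf, 66464 to 67602 in Acute-7d, 70965 to 74424 in Acute-2d and 57574 to 59112 in Effector. The sum was highest in the T_Dysf libraries, in which *Ctsw*, *Ctsd* and *Srgn* were high, but its genes did not move alike. *Cd3e* was at 24506 and 24788 in T_Dysf and 12056 and 11277 in Acute-7d, whereas *Cd2* was lowest in T_Dysf, at 3439 and 3478 beside 8378 and 8820. Their part in these results was not tested. Macrophages are rich in *Ctsd* and *Ctsl*, and 7 of 8 macrophage and monocyte markers in the table summed to 503 to 572 in T_Dysf, 532 to 709 in Acute-7d, 621 to 974 in Acute-2d and 537 to 724 in Effector, so this sum was not higher in T_Dysf. Its genes did not move alike either. *Csf1r* was at 21.0 and 18.0 in T_Dysf beside 14.6 and 12.5 in Acute-7d, and *Cd68* at 129 and 101 beside 82.6 and 121. *Itgam* was at 49.1 and 51.4 in T_Dysf beside 94.8 and 115 in Acute-7d, and *Cd14* at 13.8 and 16.0 beside 25.7 and 32.3. The part of such cells was not tested. Mast cells also store serglycin: 3 of 5 mast cell markers in the table summed to 125 to 126 in T_Dysf and 138 to 235 in Acute-7d, with *Fcer1a* at 0 in all 8 libraries. Nearly all of this sum was *Cpa3*, at 126 and 122 in T_Dysf and 136 and 235 in Acute-7d, while *Ms4a2* was at most at 3.56. For *Serpinb1a* and *Ctsg*, the 2 of 6 neutrophil markers in the table summed to at most 7.81 in any library. NK cell markers, 3 of 3, summed to 249 to 551 in T_Dysf, 1038 to 1497 in Acute-7d, 418 to 451 in Acute-2d and 256 to 567 in Effector, so this sum was not highest in T_Dysf, where *Ctsw* was, but was highest in Acute-7d, where *Ctsw* came next. *Cd4*, *Foxp3* and *Zbtb7b* summed to 1057 to 1636 over all libraries, B cell markers to 55.8 to 178, dendritic cell markers to 115 to 568, and erythroid markers to 21.3 to 42.6. Some of these sums rested mostly on a single gene. *Zbtb7b* was at 1041 to 1625 and *Cd4* at 1.01 to 13.0. Of the NK cell markers *Klrb1c* was at 243 to 1384 and *Ncr1* at 1.78 to 105, and of the dendritic cell markers *Xcr1* was at 101 to 546 and *Clec9a* at most at 2.44.

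Over the 8 libraries, the 3 genes with the widest range between condition means of log2(normalized count + 1), 2.79 for *Serpinb6b* and 1.78 for *Ctsw* and *Serpinb9*, just above 1.73 for *Serpinb1a*, were compared with 12027 other genes, as a description in which the libraries share conditions and depth. *Ctsw* was most like *Rab28* (Pearson r = 0.991), *Gcnt1* (0.988) and *Tec* (0.987), *Serpinb9* like *Fkbp3* (0.987), *Mfhas1* (0.957) and *Dgkd* (0.957), and *Serpinb6b* like *Crybg1* (0.97), *Ptpmt1* (0.966) and *Dpysl2* (0.962). Within the 10 genes, *Ctsd* and *Ctsw* were the pair most alike (r = 0.97), *Ctsw* and *Srgn* stood at 0.88, *Serpinb6b* and *Serpinb9* at 0.84, and *Srgn* and *Serpinb9* ran in opposite order (-0.83), with *Ctsc* and *Serpinb9* at -0.89. These values restate over 8 points the condition means given above.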

How the data were processed

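RNA was measured by poly(A)-selected RNA-Seq of 8 P14 libraries in 4 conditions. Per the methods of the study, the authors used STAR for alignment to mm10 and Partek Flow to quantify RefSeq transcripts; the read length is not given in the sources used here. The deposited values are a signal, estimated gene read counts that the authors divided by DESeq2 median-ratio size factors (normalized counts). Depth was estimated from the worth of 1 read, taken from the low values of each library; under 1000 reads 50.4% to 72.7% of values were whole multiples of it (tolerance 0.01), so no count model was fitted.

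limma 3.58.1 in R 4.3.3 (lmFit, eBayes with trend) was fitted to log2(normalized count + 1) of 24303 genes in 8 libraries with 4 condition means, which left 4 residual degrees of freedom. All 6 pairs of conditions were compared, two-sided, with Benjamini-Hochberg adjustment over all genes; every adjusted p in the text comes from this test or, where an alternative or a left-out library is named, from its refit under that setting (3 residual degrees of freedom without a library). Fold changes are on the log2(value + 1) scale, which understates those of low genes. The procedure was tested on simulated data. An exact permutation test of 2 libraries against 2 cannot go below 0.33 and was not used. The 10 genes, the lists and the ratios were chosen with earlier results of these data known. All 10 genes were described. In each list up to 3 genes a direction with the largest change among those called between T_Dysf and Acute-7d were named, or if none the 2 with the highest mean; *Ctsb*, *Tfeb*, *Gnptab*, *Vamp2* and *Ctsz* were chosen after their values were seen. The 3 genes with the widest range of condition means on the log2 scale were compared with all others of a mean of at least 50.

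Alternatives were a pseudocount of 10, only genes whose mean, or whose maximum, reached 50, equal 75th percentiles, the 2 conditions alone, the replicate number as a block, a RESUB term, an unadjusted p, leaving out each library, and, added after the data were seen, *Ctsd* summed with *Gm49369*. Positions, exon lengths and shared stretches came from GENCODE vM21 (GRCm38) and promoter windows from RefSeq (GRCm38.p6). Python 3.11.15 with pandas 2.3.3, numpy 2.4.6 and matplotlib 3.10.9 was used for summaries and plots.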

Additional observations from a re-analysis of the deposited data

How the results depend on the processing

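Over all alternatives, 668 of 780 single-gene results of the 10 genes kept their direction and their side of the threshold, 58 lost a call, 31 gained one (the unadjusted p included) and 23 changed sign. Only the 11 calls of the main test could be lost, so most of the 668 were differences that stayed uncalled, and 668 of 780 does not measure how firm the calls were. The counts of the 10 genes called moved as follows, with the cause not tested. The RESUB term left 0 in all 3 comparisons of T_Dysf and 0 in Effector against Acute-2d. In T_Dysf against Acute-2d, both without the prefix, the log2 fold changes of the called genes did not move with it. Equal 75th percentiles, which shift the median of all genes by -0.07 to -0.11 where it moved, left 0 in T_Dysf against Acute-7d and 1 in Effector against Acute-2d. Fits of the 2 conditions alone left 1 in T_Dysf against Acute-2d, 1 against Effector, and 0 in Effector against Acute-2d. Testing only genes whose mean, or whose maximum, reached 50, so fewer genes, gave 3 in Effector against Acute-7d and 4 in Effector against Acute-2d under each filter. The share of all tested genes called rose as well. It was 16.1% with the mean and 16.5% with the maximum against Acute-7d, and 17.7% and 18.0% against Acute-2d, beside 8.06% and 8.78% without a filter. At an unadjusted p the counts were 4 in T_Dysf against Acute-7d, 1 in Acute-7d against Acute-2d, 3 in Effector against Acute-7d and 4 in Effector against Acute-2d. The shares of all genes were then 13.1%, 3.74%, 14.5% and 15.2% in the same order. The summed *Ctsd* gave 3 in T_Dysf against Acute-7d, within 1.5 times of 2.

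Whether same-numbered replicates were pairs is not given in the sources used here. Over 6 pairs of conditions the correlation of replicate differences across 12028 genes ran from -0.199 to 0.197, with 2 over 0.1. These were Acute-2d with T_Dysf (0.197) and Acute-2d with Acute-7d (0.12). With a single replicate difference in each condition, such values cannot decide whether replicates were paired. With the number as a replicate block the count was 1 in T_Dysf against Acute-7d, 1 against Acute-2d and 0 in Effector against Acute-2d.

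Leaving out 1 library gave 0 to 1 in T_Dysf against Acute-7d, 0 in all 4 omissions against Acute-2d, 1 to 5 against Effector, 0 in Acute-7d against Acute-2d, 0 to 1 in Effector against Acute-7d and 0 to 2 in Effector against Acute-2d; the lone library left in a condition is then assumed to vary like the others and 3 residual degrees of freedom remain.

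All changes of sign were in differences not called. *Psap* in T_Dysf against Acute-7d went to -0.08 under equal 75th percentiles and ran from -0.04 to 0.08 without 1 library, and *Tfeb* from -0.22 to 0.04. *Serpinb6b* in T_Dysf against Acute-7d went to 0.00 with the RESUB term and without Acute-7d replicate 1, and *Serpinb6a* to -0.05 and -0.04 in Effector against Acute-7d and Acute-2d under equal 75th percentiles. Leaving out 1 library gave ranges that cross 0. They were 0.00 to 0.46 for *Serpinb6b* in T_Dysf against Acute-7d. In T_Dysf against Effector they were -0.09 to 0.87 for *Serpina3g*, -0.19 to 0.55 for *Ctsl* and -0.11 to 0.38 for *Serpinb6a*. In Acute-7d against Acute-2d they were -0.19 to 0.56 for *Serpina3g*, -0.28 to 0.11 for *Serpinb1a*, -0.02 to 0.07 for *Serpinb6a*, -0.09 to 0.51 for *Serpinb9* and -0.10 to 0.36 for *Serpinb6b*. In Effector against Acute-7d they were -0.93 to 0.85 for *Serpinb1a*, -0.16 to 0.32 for *Serpinb6a* and -0.35 to 0.12 for *Ctsd*, and in Effector against Acute-2d -0.43 to 0.29 for *Ctsw*, -1.02 to 0.76 for *Serpinb1a*, -0.01 to 0.47 for *Ctsd* and -0.13 to 0.35 for *Serpinb6a*. Over all genes, the 1353, 1787 and 2241 called in T_Dysf against Acute-7d, Acute-2d or Effector were 541, 1378 and 386 with the RESUB term, 912, 1300 and 465 with the 2 conditions alone, 891, 1344 and 1757 with the replicate block, and 422 to 1534, 656 to 1867 and 585 to 2484 without 1 library. The 41, 1958 and 2135 in Acute-7d against Acute-2d and in Effector against Acute-7d and Acute-2d were 168, 808 and 350 with the RESUB term, 147, 155 and 235 alone, 125 to 376, 378 to 2156 and 553 to 2363 without 1 library; for Acute-7d against Acute-2d the count was 1 with either filter and 4 with a pseudocount of 10. At an unadjusted p they ran from 910 to 4060. Depth limits genes near the floor, such as *Ctsg* and *Chst15* in T_Dysf.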

Other observations

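Of 13 genes of lysosomal sorting and biogenesis, none was called by limma between T_Dysf and Acute-7d cells, where 5.57% of all genes were (median log2 fold change 0.26). In this list 6 genes had an unadjusted p under 0.05 by limma, a count without a share over all genes to set beside it. The 2 with the highest means were *Psap*, prosaposin, and *M6pr*, the cation-dependent mannose 6-phosphate receptor. *Psap* was at 13196 and 14208 in T_Dysf and 14068 and 12952 in Acute-7d, and *M6pr* was 1.25-fold higher in T_Dysf (adjusted p = 0.037, under the fold threshold). Beside cathepsin D, which reaches lysosomes by its mannose 6-phosphate tag, the gene of the enzyme that begins that tag, *Gnptab*, had another order of conditions: 4969 and 4086 in Effector, 2494 and 2390 in T_Dysf, 1390 and 1515 in Acute-7d, and 1112 and 1039 in Acute-2d. It was called higher in Effector than in Acute-7d (log2 fold change 1.63, adjusted p = 0.00702) and Acute-2d (2.07, adjusted p = 0.00376), where *Ctsd* was not called. It was also called higher in T_Dysf than in Acute-2d (1.18, adjusted p = 0.00671), where *Ctsd* was called higher too.

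In the comparisons with Effector cells, *Vamp2*, a vesicle SNARE of granule fusion, was at 3.42-fold higher level in T_Dysf (adjusted p = 0.0101) and *Ctsz*, cathepsin Z, at 2.03-fold lower level (adjusted p = 0.0071). *Rab27a* was called higher over Acute-7d in T_Dysf but was 1.07-fold higher than in Effector (95% interval of the log2 fold change -0.27 to 0.45), while *Srgn*, *Ctsw* and *Ctsd* were called higher in T_Dysf than in Effector.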
